A study of Mus musculus with 16 samples.

Results

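The comparison set astrocyte libraries from the Alzheimer's disease model against astrocyte libraries from wild-type mice, with Rack1 intact in both groups. Its members were chosen by label: the 2 libraries named AD WT and the 2 named WT among the astrocyte samples, 4 of the 16 libraries of the series. The other 12 were astrocytes from mice with a Rack1 conditional knockout without (CKO) or with the model (AD CKO), and microglia from the same 4 groups, 2 libraries each. The labels gave the genotype as WT or WT AD, and the transgenes of the model, the Cre driver, the age, the sex and the isolation method were not given in the sources used here. No label tied a library to an animal, culture or pool, so the p-values measured only the spread between these samples, which may be technical. Expression was measured by RNA-seq of total RNA with a library kit for low input, and is given in CPM, counts divided by library size, after scaling over all 8 astrocyte libraries.

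Astrocytes take up glutamate and GABA, buffer potassium and water, couple to each other through gap junctions and supply cholesterol and lipoproteins to neurons. In injury, inflammation and around amyloid plaques they become reactive: the intermediate filament genes Gfap and Vim rise, and interferon-stimulated, complement and antigen presentation genes can rise as well. Lists named A1 and A2 come from astrocytes after endotoxin and after ischaemia, and are used here only as names of gene lists.

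The labels were checked first against marker genes. The summed level of 12 astrocyte markers was 27616 and 27971 CPM in the WT libraries and 26735 and 27432 in the AD WT libraries, so the groups lay close together. In the microglia libraries the same sum was 309 to 439 CPM. Neuron markers summed to 62 to 67 CPM in the 4 libraries. Oligodendrocyte markers summed to 15027 and 15222 CPM in WT and 7141 and 7363 in AD WT. Microglia markers summed to 561 and 558 CPM in WT and 1084 and 1113 in AD WT, against 32074 to 55802 in the microglia libraries. Ependymal and choroid markers summed to 4837 and 4500 CPM in WT and 9826 and 8660 in AD WT, and erythroid markers to 154 and 140 against 508 and 417. These shifts in markers of other cells moved with the model in the same libraries as the results below, and their part in those results was not tested except where a value is given. In bulk RNA, fewer cells of a type and less RNA per cell cannot be told apart.

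**Figure D1:**
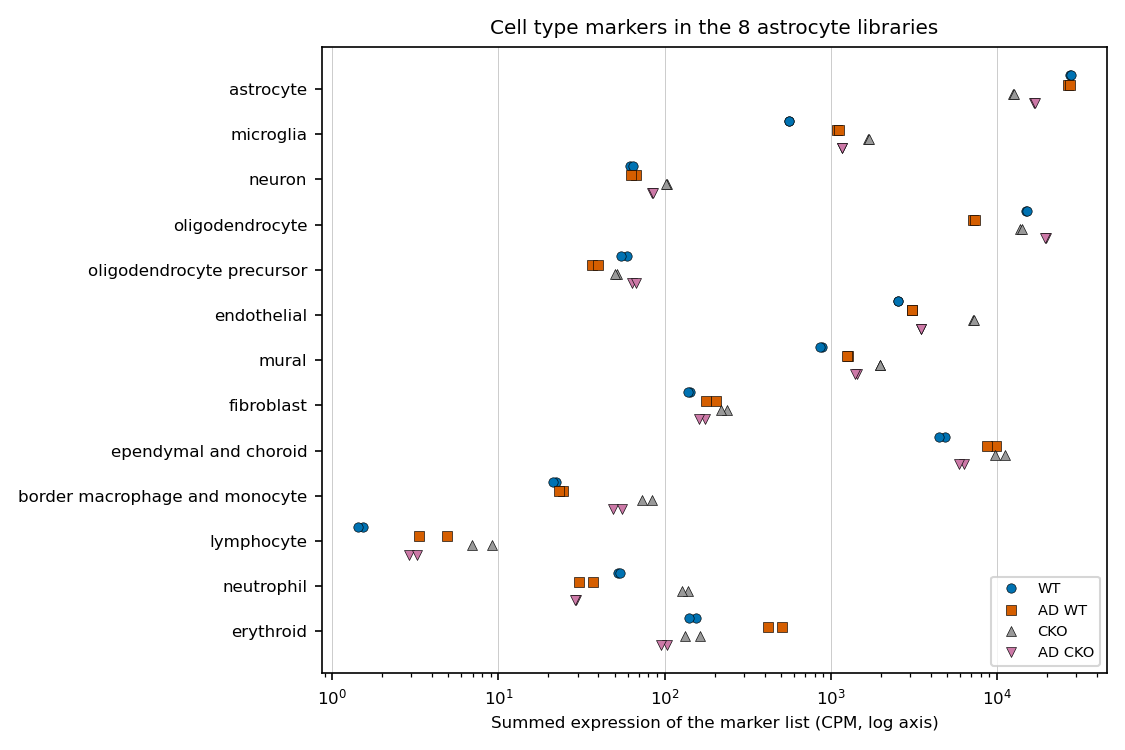
Summed expression of 13 marker lists (x axis, CPM, log axis) in each of the 8 astrocyte libraries, 2 points a group. WT and AD WT lie close together in astrocyte and neuron markers and are apart in oligodendrocyte, microglia, ependymal and choroid, and erythroid markers.

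The sex-linked genes also differed. Xist, the RNA that silences 1 X chromosome in female cells, was at 0 and 0.031 CPM in the WT libraries and at 13.3 and 15.3 CPM in the AD WT libraries, and at 0.17 CPM or less in the CKO and AD CKO astrocyte libraries. The Y-linked Uty was at 33.3 and 40.0 CPM in WT and 19.8 and 22.6 in AD WT (log2 fold change -0.79 ± 0.093, SE). Ddx3y and Kdm5d, also Y-linked, fell by 0.35 and 0.60 on the log2 scale. Tsix, which overlaps Xist on the other strand, was at 0.070 and 0.19 CPM in WT and 35.5 and 31.5 in AD WT, and without stated strand its reads and those of Xist cannot be told apart. The AD WT libraries thus held both Xist and Y-linked RNA. Sex and the model cannot be told apart in any result below that uses AD WT against WT. Rack1 itself was at 61.1 and 57.9 CPM in WT and 76.6 and 72.9 in AD WT, a rise of 0.33 ± 0.061 (SE).

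The 8 astrocyte libraries held 29615853 to 35851170 expected counts, and 20116 genes were tested. In AD WT against WT 4023 genes (20.0%) rose and 3625 (18.0%) fell at an adjusted p under 0.05 (edgeR quasi-likelihood test, Benjamini-Hochberg), 38.0% in all. These shares are the background for the counts of list members below. A change of at least 2-fold was found for 934 risen genes (4.64%) and 737 fallen genes (3.66%). Without WT replicate 2 the count of risen genes was 2465. The groups did not overlap for 69.2% of genes. The median log2 fold change of all tested genes was 0.03. It ran from 0.26 in the fifth of genes with the shortest transcripts to -0.12 in the fifth with the longest.

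Among canonical astrocyte genes most changes were small. Of the 12 astrocyte markers 4 rose and 4 fell, with a median log2 fold change of -0.02. With each of the 4 compared libraries left out in turn, 2 rose. Aqp4, the water channel of astrocyte endfeet, was at 1073 and 1109 CPM in WT and 1041 and 1113 in AD WT, and the groups overlapped. Aldoc, a glycolytic enzyme enriched in astrocytes, was at 6884 and 6755 CPM against 6778 and 6732, and Gjb6, which encodes connexin 30, at 1671 and 1640 against 1614 and 1676. Neither passed the test, though Gjb6 passed as a fall with an offset for transcript length. The marker with the lowest fold change was Slc4a4, a sodium bicarbonate cotransporter, at 719.6 and 743.9 CPM in WT and 536.0 and 567.5 in AD WT (-0.41 ± 0.045, SE, adjusted p = 2.4e-07). The marker with the highest was Gfap.

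Transporter genes fell more often than they rose. Of 24 genes of astrocyte transport and metabolism, 11 fell and 3 rose, with a median of -0.08. Over all tested genes 18.0% fell and 20.0% rose. The GABA transporter Slc6a11 was at 937.7 and 942.2 CPM in WT and 766.2 and 762.2 in AD WT (-0.30 ± 0.038). The glycine transporter Slc6a9 was at 725.4 and 729.1 CPM against 576.8 and 605.4 (-0.30 ± 0.042). Both had lower values in both AD WT libraries than in either WT library, while groups did not overlap for 69.2% of all tested genes. The 2 main glutamate transporters went in opposite directions by small amounts: Slc1a2 rose by 0.15 ± 0.038 and Slc1a3 fell by 0.16 ± 0.038. Slc1a2 no longer passed without WT replicate 1 or without AD WT replicate 2, and Slc1a3 no longer passed with an offset for transcript length. Without WT replicate 2 or without AD WT replicate 1 the count of fallen members was 6, and the count of risen members was 0 without WT replicate 1 and 1 without any of the other 3.

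Receptors and synapse-directed secreted genes also fell more often than they rose. Of 15 receptors of astrocytes 6 fell and 2 rose (median -0.15), where 18.0% of all tested genes fell and 20.0% rose. The median was -0.06 with an offset for transcript length and -0.05 without WT replicate 2, where 1 rose, as it did without AD WT replicate 1. The adenosine A1 receptor gene Adora1 was at 138.8 and 143.4 CPM in WT and 104.9 and 106.5 in AD WT (-0.42 ± 0.051). Ednrb, the endothelin B receptor, fell by 0.29, Gria2, an AMPA receptor subunit, by 0.35, and Grm3, a metabotropic glutamate receptor, by 0.21. Of 21 synaptogenic and matrix genes 10 fell and 3 rose (median -0.11). Thbs2, a thrombospondin that promotes synapse formation, was at 23.9 and 25.0 CPM in WT and 11.7 and 12.2 in AD WT (-1.04 ± 0.094, adjusted p = 1.41e-08). Thbs4 was at 5.25 and 6.31 CPM against 3.55 and 3.03, and the groups did not overlap for either gene, nor for 69.2% of all tested genes. The proteoglycan genes Gpc5 and Bcan fell by 0.30 and 0.17. Without WT replicate 2, 5 of the 21 fell, and without AD WT replicate 1, 4 fell. In each of these 1 rose, and none rose without WT replicate 1 or without AD WT replicate 2.

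Transcription factors of astrocytes and their precursors rose more often than they fell. Of 17 members 10 rose and 2 fell, with a median of 0.20 (0.11 with the length offset). The Notch target Hes5 was at 252.2 and 261.1 CPM in WT and 376.6 and 331.8 in AD WT (0.47 ± 0.074), and Hes1 at 37.9 and 38.3 against 54.2 and 47.8 (0.42 ± 0.078). Id2, an inhibitor of basic helix-loop-helix factors, was at 1116 and 1146 CPM in WT and 1465 and 1461 in AD WT (0.37 ± 0.037). The homeobox gene Dbx2 rose by 0.21. Nfia, a factor that drives astrocyte formation, fell by 0.32 ± 0.056.

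Among reactive genes the filament genes Gfap and Vim rose, as did members of other kinds, while several genes known from amyloid models did not pass. Of 13 pan-reactive genes 7 rose and 1 fell, with a median of 0.42. Gfap was at 152.2 and 153.2 CPM in WT and 235.3 and 242.9 in AD WT (0.65 ± 0.045, adjusted p = 1.81e-10). Both AD WT libraries were above both WT libraries, while groups did not overlap for 69.2% of all tested genes. Vim was at 132.3 and 129.7 CPM against 175.3 and 161.4 (0.36 ± 0.06). S1pr3, a sphingosine phosphate receptor, rose by 0.42, the ferroxidase gene Cp by 0.31 and the secreted lipocalin Lcn2 by 0.74. The oncostatin M receptor gene Osmr fell by 0.46 ± 0.091. Serpina3n, a protease inhibitor used as a marker of reactive astrocytes, was at 30.8 and 27.7 CPM in WT and 30.5 and 32.4 in AD WT (0.10 ± 0.075, adjusted p = 0.291), and its groups overlapped. Steap4 and Cd44 had fold changes of -0.28 each and did not pass.

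The 14 genes reported for astrocytes of such models gave 5 that rose and 2 that fell, with a median of 0.13. Besides Gfap and Vim, the tetraspanin Cd9 rose, from 430.4 and 413.3 to 545.2 and 524.7 CPM. The complement gene C4b was at 42.8 and 45.1 CPM in WT and 48.3 and 46.8 in AD WT (0.11 ± 0.058, adjusted p = 0.127), and passed as a rise only with an offset for transcript length. Apoe and Clu, the main lipoprotein genes of astrocytes, were at 0.14 ± 0.108 and 0.05 ± 0.034 and did not pass. Gsn, an actin-severing protein also high in oligodendrocytes, fell by 0.40 ± 0.044, and oligodendrocyte markers fell in the same libraries.

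Of the 12 genes named A1, 11 rose and none fell, with a median of 0.58, where 20.0% of all tested genes rose and 18.0% fell. C3, the central complement component, was at 4.70 and 5.04 CPM in WT and 18.5 and 18.8 in AD WT (1.93 ± 0.093, adjusted p = 3.35e-13). Fkbp5, a gene induced by glucocorticoids, was at 1.74 and 1.45 CPM against 5.66 and 6.46 (1.93 ± 0.185). The class I genes H2-T23 and H2-D1 rose by 0.77 and 0.47, and the immunoproteasome subunit Psmb8 by 0.88. Ggta1 was at 17.7 and 17.4 CPM against 18.4 and 18.4 and did not pass. With genes at least 4-fold higher in WT microglia than in WT astrocyte libraries left out, 7 members were tested and all 7 rose. Of 11 genes named A2, 5 rose and 1 fell, and without AD WT replicate 1, 3 rose.

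**Figure D2:**
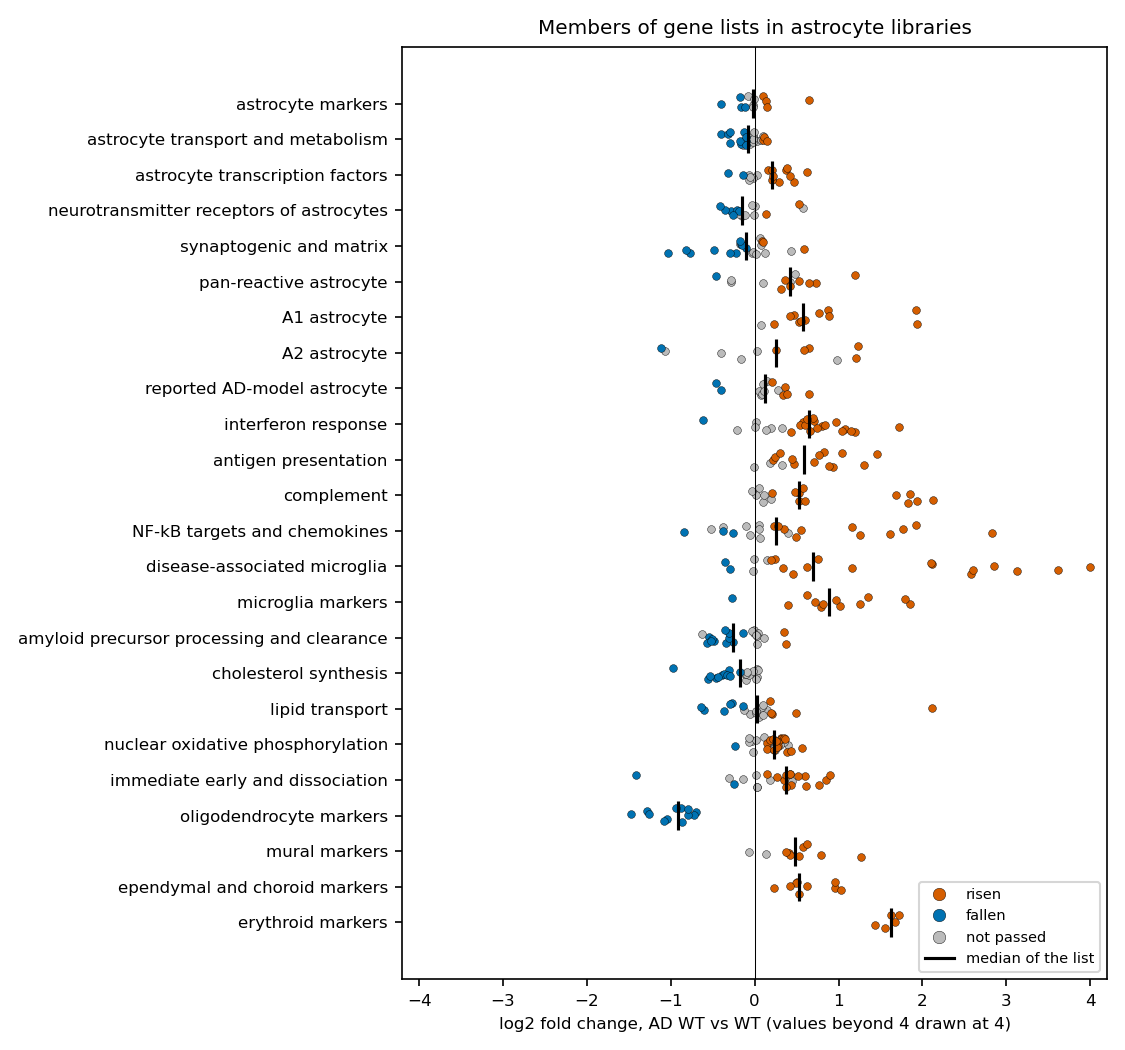
log2 fold change of AD WT against WT (x axis) for the tested members of 24 gene lists, 1 point a gene, coloured by the edgeR test, with the list's median as a bar. Interferon, antigen presentation and microglia lists lie mostly to the right of 0 and all 12 oligodendrocyte markers to the left.

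Of 16 genes of STAT3 and gp130 signalling, the shared route of the interleukin-6 family, 3 rose and 4 fell, with a median of -0.03. These shares were near those of all genes (20.0% risen and 18.0% fallen). The receptor genes Il6st, Lifr and Osmr fell and Cntfr rose by 0.22, a call that was lost without WT replicate 2 or with the length offset. Il6st, which encodes gp130, was at 88.4 and 90.4 CPM in WT and 57.7 and 60.6 in AD WT (-0.60 ± 0.059, adjusted p = 5.93e-08). Its partner Lifr was at 101.3 and 103.1 CPM against 74.2 and 81.9 (-0.39 ± 0.064). Cntf, a ligand of this family, rose from 2.85 and 3.34 to 4.90 and 5.07 CPM. The trophic list was split, with 8 of 24 risen and 8 fallen, and 5 risen without WT replicate 1. Vegfa was at 391.7 and 416.0 CPM in WT and 286.3 and 293.8 in AD WT (-0.48 ± 0.046). The alarmin Il33 was at 520.7 and 547.4 CPM against 398.4 and 421.6 (-0.38 ± 0.045).

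Interferon-stimulated genes are switched on when interferon receptors activate a complex of STAT proteins and IRF9, which binds a promoter element built of GAAA repeats. The 250 bases before the RefSeq gene start (GRCm38.p6) were searched for GAAANNGAAA and its reverse complement TTTCNNTTTC, on both strands and with no other motif. The motif stood in 2.98% of the 32851 windows of that length. By gene, it stood in any window of 437 of 13307 tested genes (3.28%). Of 18 interferon list members with a window 9 had it, among them 7 of the 13 that rose and 2 of the 5 that did not. A match is a description of letters, not a measured binding site. The windows of the 4 risen members with a match and the smallest p are shown, with the matches in capitals. They lie at chr19:34640639-34640888 (Ifit1, plus strand), chr19:34583279-34583528 (Ifit3, plus strand), chr8:71537473-71537722 (Bst2, minus strand) and chr5:92348890-92349139 (Cxcl10, minus strand).
Ifit1: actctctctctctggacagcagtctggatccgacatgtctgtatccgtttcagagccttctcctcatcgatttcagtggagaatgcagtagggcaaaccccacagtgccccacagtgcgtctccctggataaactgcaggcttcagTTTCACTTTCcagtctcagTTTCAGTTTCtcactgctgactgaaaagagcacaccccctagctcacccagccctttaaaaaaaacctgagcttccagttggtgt
Ifit3: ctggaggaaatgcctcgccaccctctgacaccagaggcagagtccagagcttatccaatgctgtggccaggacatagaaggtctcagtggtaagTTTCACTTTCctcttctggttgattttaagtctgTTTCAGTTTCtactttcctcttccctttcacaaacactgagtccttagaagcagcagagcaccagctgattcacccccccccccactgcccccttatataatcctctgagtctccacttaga
Bst2: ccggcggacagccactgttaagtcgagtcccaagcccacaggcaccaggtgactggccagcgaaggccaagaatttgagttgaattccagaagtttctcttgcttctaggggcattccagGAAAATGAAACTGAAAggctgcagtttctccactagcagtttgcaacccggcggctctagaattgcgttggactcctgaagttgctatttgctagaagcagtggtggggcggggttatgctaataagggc
Cxcl10: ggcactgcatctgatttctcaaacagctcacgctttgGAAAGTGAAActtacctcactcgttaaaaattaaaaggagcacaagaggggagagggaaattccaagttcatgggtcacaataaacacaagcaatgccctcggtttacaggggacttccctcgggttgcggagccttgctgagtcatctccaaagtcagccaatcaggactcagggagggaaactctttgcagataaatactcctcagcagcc

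Of 24 interferon response genes 17 rose and 1 fell, with a median of 0.64. Ifit1, which binds foreign RNA and has the 2 motif matches shown above, was at 24.8 and 24.7 CPM in WT and 47.1 and 49.8 in AD WT (0.97 ± 0.063, adjusted p = 6.8e-11). Usp18, a negative regulator of the interferon receptor, was at 11.7 and 12.7 CPM against 26.98 and 27.2 (1.15 ± 0.08). Bst2, also called tetherin, was at 13.7 and 12.8 CPM against 29.3 and 26.9 (1.08 ± 0.097). In these 3 genes every AD WT library was above every WT library, while groups did not overlap for 69.2% of all tested genes. Ifit3 and Rtp4 rose by 0.58 and 0.84. The chemokine Cxcl10 was at 4.38 and 3.43 CPM in WT and 9.71 and 8.10 in AD WT (1.20 ± 0.125). The 1 member that fell, Stat2, is named after its values were seen: it was at 23.2 and 23.6 CPM in WT and 15.3 and 15.3 in AD WT (-0.61 ± 0.083). With microglia-enriched genes left out, 13 of 18 tested members rose. Relative to the summed microglia markers of the same library, Ifit1 was at 44.3 and 44.3 in WT and 43.4 and 44.7 in AD WT astrocyte libraries per 1000 CPM of markers, but at 0.136 to 0.248 in the microglia libraries of the same groups.

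Antigen presentation genes rose in 13 of 16 cases and none fell, with a median of 0.59. B2m, the light chain of class I molecules, was at 517.2 and 504.8 CPM in WT and 919.7 and 899.1 in AD WT (0.83 ± 0.038, adjusted p = 1.23e-13). Cd74, the class II invariant chain, was at 41.2 and 36.8 CPM against 112.3 and 101.3 (1.46 ± 0.066), and the class II gene H2-Aa at 8.94 and 8.60 against 18.9 and 17.1. Most of this list is microglia-enriched: 4 members were left without such genes, and 3 of them rose. Per 1000 CPM of microglia markers B2m was at 905 and 923 in WT and 808 and 848 in AD WT astrocyte libraries, and at 43.4 to 84.0 in the microglia libraries. Cd74 was at 66.0 and 73.5, then 91.1 and 104 in the astrocyte libraries, and at 18.1 to 28.8 in microglia.

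Complement genes rose in 11 of 17 cases and none fell, with a median of 0.52. The C1q genes, which in brain come mainly from microglia, rose with the microglia markers: C1qb was at 40.9 and 42.6 CPM in WT and 189.0 and 174.5 in AD WT (2.12 ± 0.055). C1qa and C1qc rose by 1.85 and 1.68, and the C3a receptor gene C3ar1 by 1.83. Per 1000 CPM of microglia markers C1qb was at 72.9 and 76.4 in WT and 157 and 174 in AD WT astrocyte libraries, against 89.5 and 93.6, then 117 and 119 in the microglia libraries. C3 differed from C1qb here, at 8.38 and 9.04, then 16.9 and 17.0 in astrocyte libraries, against 0.164 to 0.427 in microglia. Without microglia-enriched genes 6 of 11 complement members rose.

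Large rises were found among genes of disease-associated microglia, the state that plaque-associated microglia take on through Trem2 and Tyrobp. Of 20 such genes 15 rose and 2 fell, with a median of 0.69. Cst7, the gene of cystatin F, was at 0.35 and 0.31 CPM in WT and 44.6 and 43.2 in AD WT (7.05 ± 0.165, adjusted p = 2.94e-18). The chemokine Ccl6 was at 2.96 and 2.66 CPM against 35.5 and 33.1 (3.61 ± 0.123), and the lectin receptor Clec7a at 2.19 and 2.66 against 20.6 and 21.9 (3.12 ± 0.12). Tyrobp and Trem2, adaptor and receptor, rose by 2.86 and 2.61, Cd68 by 2.31, Spp1 by 2.11, and Lpl, a lipase that hydrolyses triglycerides of lipoproteins, by 2.12. Without microglia-enriched genes 3 of 8 tested members rose and the median was 0.08.

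Cst7, Ccl6, Clec7a, Tyrobp and Trem2 had larger fold changes than any of the 12 homeostatic microglia markers in the same libraries. These markers had a median of 0.89, with 11 risen and 1 fallen. Over the whole lists the order was the other way, since the 20 disease-associated genes had a median of 0.69. P2ry12 was at 59.7 and 60.1 CPM in WT and 99.6 and 107.0 in AD WT (0.79 ± 0.054), Csf1r rose by 0.82 and Fcrls by 1.79. Per 1000 CPM of these markers Cst7 was at 0.555 and 0.621 in WT and 38.8 and 41.2 in AD WT astrocyte libraries, and at 5.93 and 6.17, then 27.6 and 28.3 in the microglia libraries. Tyrobp was at 16.6 and 18.2, then 60.2 and 68.5 in astrocyte libraries, and at 22.6 and 24.5, then 45.0 and 45.5 in microglia. The AD WT astrocyte libraries thus exceeded the AD WT microglia libraries on this scale for both genes. Not all of the 20 disease-associated genes behaved alike on it. Itgax was at 2.45 and 3.16 in AD WT astrocyte libraries and at 4.7 and 4.93 in AD WT microglia libraries. Axl went from 346 and 353 to 175 and 179 in astrocyte libraries, and from 3.35 and 3.4 to 13.2 and 13.3 in microglia.

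**Figure D3:**
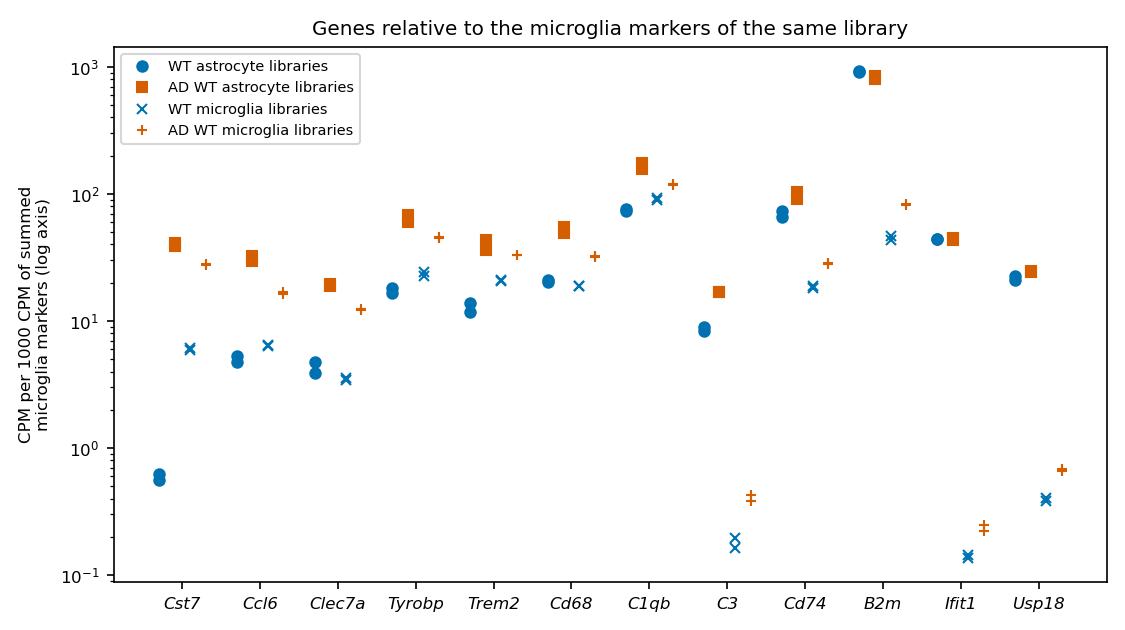
Level of 12 genes per 1000 CPM of summed microglia markers in the same library (y axis, log axis), in WT and AD WT astrocyte and microglia libraries, 2 points a group. Ifit1, Usp18, C3 and B2m lie far higher in astrocyte than in microglia libraries, while C1qb, Tyrobp, Trem2 and Cd68 lie near each other.

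Of 23 genes of amyloid precursor processing and clearance 12 fell and 2 rose, with a median of -0.25 (-0.14 with the length offset). App, the amyloid precursor gene, was at 677.0 and 665.5 CPM in WT and 442.5 and 466.2 in AD WT (-0.56 ± 0.041, adjusted p = 4.63e-10). Whether reads of a model transgene were counted under App was not tested. Its relatives Aplp1 and Aplp2 fell by 0.52 and 0.35, the sorting receptor gene Sorl1 by 0.54, and Bace1, the beta-secretase, by 0.49. Mapt, which encodes tau, was at 109.2 and 105.7 CPM in WT and 79.4 and 71.3 in AD WT. Both AD WT libraries were below both WT libraries for all of these genes, while groups did not overlap for 69.2% of all tested genes. Oligodendrocyte markers fell in the same libraries.

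Cholesterol synthesis genes fell in 11 of 21 cases and none rose, with a median of -0.18. Cyp51, which demethylates lanosterol, was at 214.9 and 224.0 CPM in WT and 149.6 and 155.0 in AD WT (-0.53 ± 0.051, adjusted p = 3.43e-08). Srebf2, the transcription factor that drives the pathway, was at 200.4 and 194.6 CPM against 145.0 and 146.3 (-0.44 ± 0.049). The lipoprotein receptor gene Vldlr fell by 0.65. In microglia the same list went the other way, with 11 of 21 genes risen and none fallen, and 15 of 21 genes differed between the cell types by the test of the difference (23.6% of all genes tested did).

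Of 32 nuclear oxidative phosphorylation genes 17 rose and 1 fell, with a median of 0.23. Ndufa1, a small subunit of complex I, was at 64.1 and 59.8 CPM in WT and 97.7 and 86.2 in AD WT (0.57 ± 0.071). With an offset for transcript length the median was 0.04, with 7 risen and 6 fallen, and without WT replicate 2, 10 rose. Of 23 immediate early and dissociation genes 14 rose and 2 fell, with a median of 0.37 (0.24 with the length offset). Dusp1, a phosphatase induced by stress, was at 221.4 and 239.8 CPM against 309.5 and 313.5, and Klf6 and Ier3 rose by 0.43 and 0.77.

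All 12 oligodendrocyte markers fell, with a median of -0.91. Mbp, the gene of myelin basic protein, was at 4829 and 4903 CPM in WT and 2038 and 2028 in AD WT (-1.26 ± 0.032, adjusted p = 5.97e-18). Mobp fell by 1.29, Ugt8a, which makes galactosylceramide, by 1.47 and Cnp by 0.80. The oligodendrocyte transcription factor gene Myrf was at 60.6 and 60.0 CPM against 19.9 and 19.6, and Enpp6, high in newly formed oligodendrocytes, at 38.7 and 35.5 against 10.9 and 12.7. Enpp6 was the 1 member that fell among 8 precursor markers, of which Bmp4 and Cspg4 rose, by 0.97 and 0.52. Among the most fallen genes over all, Tppp, a tubulin polymerisation factor of oligodendrocytes, fell by 1.72 and the neuregulin receptor gene Erbb3 by 1.60. Spock1 and Spock3, secreted proteoglycan genes, fell by 1.57 and 1.69.

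Mural, ventricle-lining and erythroid markers rose. Of 10 mural genes 8 rose and none fell: Acta2, the smooth muscle actin gene, was at 312.1 and 297.6 CPM in WT and 477.4 and 462.9 in AD WT, and Tagln and Higd1b rose by 0.79 and 1.27. Of 11 endothelial genes 4 rose and 2 fell, where 20.0% of all tested genes rose and 18.0% fell. Ly6c1 rose by 0.62 and Vwf by 0.59, while the VEGF receptor gene Kdr fell by 0.60. All 9 ependymal and choroid markers rose, among them Kcnj13 by 0.95 and Folr1 by 0.96. All 5 erythroid markers rose, and Hbb-bs was at 55.7 and 49.0 CPM against 187.2 and 156.2. Hbb-bs, C4b, H2-D1 and Bcl2a1b have near-identical copies that could share reads, so their values are uncertain.

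**Figure D4:**
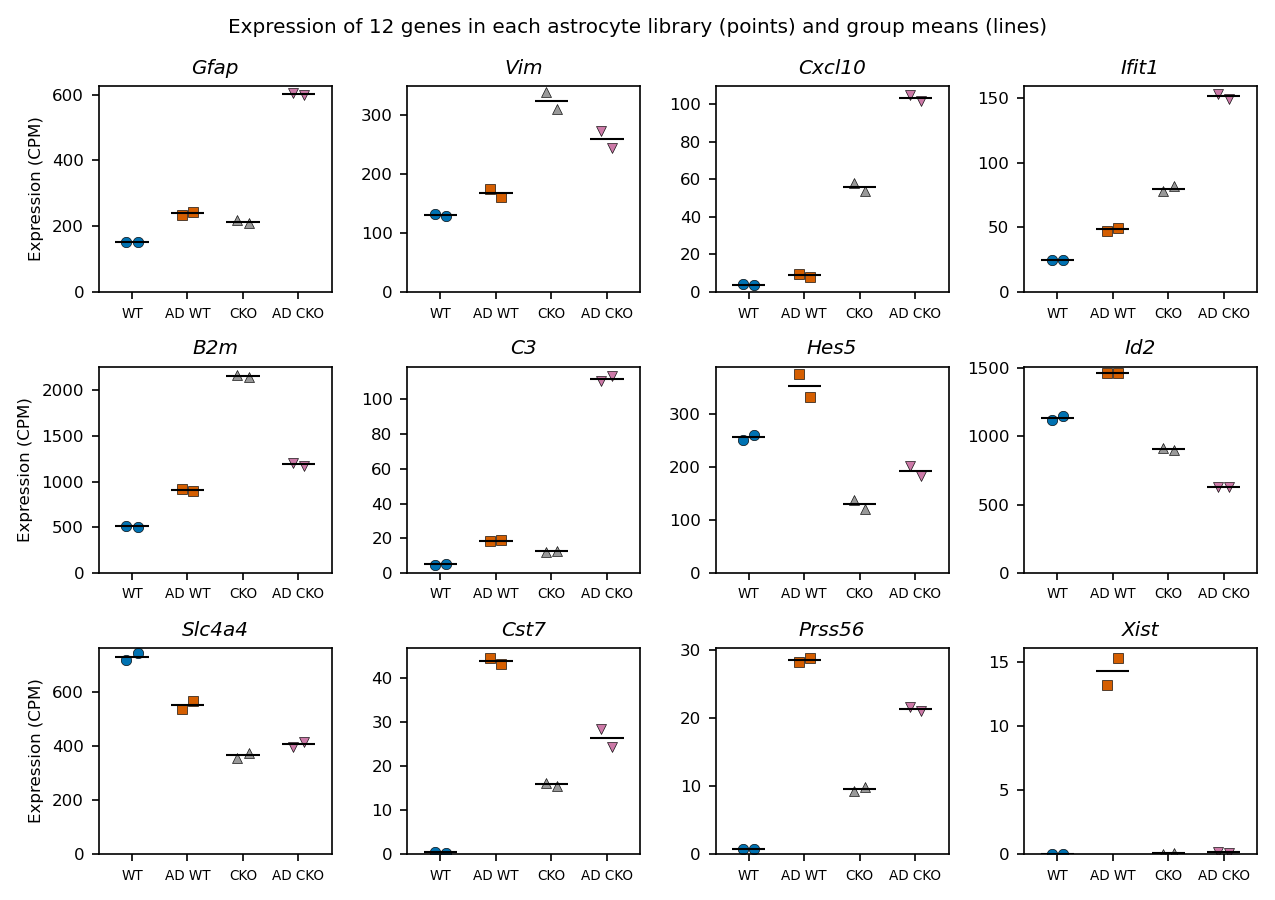
Expression (y axis, CPM) of 12 genes in the 8 astrocyte libraries, with each library as a point and the group mean as a line. Both AD WT libraries lie above both WT libraries for all genes shown except Slc4a4, which is lower. Groups did not overlap for 69.2% of all tested genes.

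A few genes with very large changes belonged to none of these groups. Prss56, a serine protease gene at chr1:87183313-87188405, was at 0.70 and 0.74 CPM in WT and 28.2 and 28.9 in AD WT (5.30 ± 0.148, adjusted p = 2.44e-17). Btf3l4b, at chr13:96079216-96081376, was at 38.6 and 41.4 CPM in WT and 0.94 and 1.73 in AD WT (-4.91 ± 0.158), and Tmem87a, at chr2:120355312-120404113, at 31.2 and 29.0 against 7.01 and 6.06 (-2.20 ± 0.11). Chga, which encodes chromogranin A, was at 15.9 and 14.97 CPM against 2.26 and 1.55, and Prox1, a homeobox gene, at 27.1 and 25.3 against 5.43 and 7.73. Bpifa1 had 11.5 and 9.71 CPM in WT and no count in AD WT, at least 6.87 lower on the log2 scale against a floor of 3 counts per library. It had no count in the CKO and AD CKO astrocyte libraries either. Coordinates are those of GENCODE M21 on mm10.

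The same model contrast could be taken in knockout mice, AD CKO against CKO, which shares no library with the comparison above. Xist was near 0 in all 4 of its libraries. There 6318 genes (31.4%) rose and 5718 (28.4%) fell. Of the genes called here 5443 were called there too, 71.2% of the first list and 45.2% of the second. Only 21.8% of these had the same direction: 743 rose and 441 fell in both, while 2074 rose here and fell there and 2185 fell here and rose there. Tested directly, the model effect differed with the knockout for 11630 genes (57.8%).

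Interferon genes rose more often than they fell in both contrasts. In AD CKO against CKO 16 of 24 rose and 3 fell, with a median of 0.55. The effect differed between the contrasts for 16 of 24, where it did for 57.8% of all tested genes. Some members differed in sign: Stat2 had log2 fold changes of -0.615 here and 1.562 there, and Ifitm3 of 0.663 and -0.703. Ifit1 rose by 0.92 there, and the difference from the rise here was -0.04 ± 0.084 (adjusted p = 0.692). Gfap rose in both and by more with the knockout (1.49, difference 0.85, adjusted p = 1.26e-10), and C3 likewise (3.18, difference 1.24, adjusted p = 1.4e-08). Tmem87a and Btf3l4b fell in both, by 2.37 and 5.30 in the knockout contrast. In microglia both genes followed another order of the groups: Btf3l4b was at 15.5 and 14.8 CPM in WT, 0.45 and 1.08 in CKO, 1.12 and 1.03 in AD WT and 12.9 and 13.1 in AD CKO. Tmem87a was at 24.3 to 33.0 CPM in the WT and AD CKO and 5.62 to 7.72 in the CKO and AD WT microglia libraries. Whether group labels or strain background play a part in this was not tested, which bears on the knockout and microglia comparisons. The same holds for AD WT against WT in astrocytes, where both genes fell.

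Other lists went the other way. Antigen presentation genes rose in 4 and fell in 11 of 16 cases, and 14 of 16 differed between the contrasts. B2m fell by 0.86 there. Immediate early genes fell in 21 of 23 cases and none rose, and oxidative phosphorylation genes fell in 28 of 32. Astrocyte transport genes rose in 19 of 24 cases, with Slc6a11 at 0.51, and amyloid precursor processing genes in 18 of 23, with App at 0.26. Serpina3n and C4b, which did not pass here, rose by 1.13 and 1.83 there, and their differences passed (adjusted p = 1.99e-08 and 7.06e-14). Marker sums of other cells moved the other way as well: microglia markers went from 1681 and 1705 CPM in CKO to 1171 and 1165 in AD CKO, and oligodendrocyte markers from 13787 and 14153 to 19591 and 19463.

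**Figure D5:**
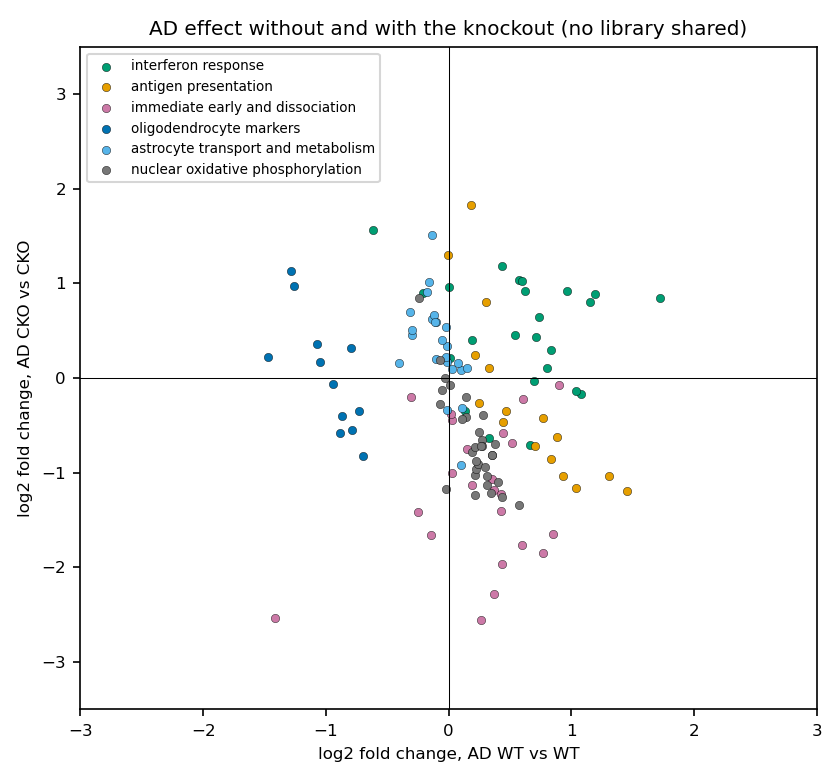
log2 fold change of AD WT against WT (x axis) and of AD CKO against CKO (y axis) for members of 6 lists, 1 point a gene. Most interferon genes lie at the upper right, while antigen presentation, immediate early and oxidative phosphorylation genes lie mostly at the lower right.

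In microglia of the same genotypes 1851 genes (10.7%) rose and 1492 (8.62%) fell with the model. The model effect differed between astrocyte and microglia libraries for 4862 of 20589 genes (23.6%). Of genes called in both cell types 58.4% had the same direction. Interferon genes rose in both, in microglia 19 of 24 with a median of 0.56, but the size of the effect differed for 14 of 24. Usp18 rose by 0.57 there against 1.15 here (adjusted p of the difference 0.000446), and Rtp4 by 0.57 against 0.84 (0.0667). Disease-associated genes rose in 20 of 20 cases in microglia, and Cst7 rose by 2.01 there. Homeostatic markers fell in 9 of 12 cases in microglia, with P2ry12 at -0.58, while they rose in the astrocyte libraries. Gfap rose by 2.81 in microglia libraries, from 15.6 and 16.7 to 110.2 and 116.5 CPM. Adora1 rose in microglia libraries by 1.17 and fell here, a difference of -1.58 (adjusted p = 2.89e-11).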

How the data were processed

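RNA-seq libraries of astrocytes and microglia were deposited as 2 gene tables. Per the submitters' processing notes fastp, HISAT2 and StringTie were used with mm10, with no roles or versions given. The values the authors deposited were taken for expected counts, since they are not all whole and their totals differ between libraries, and were rounded to whole numbers. No column lacked a sample.

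Genes were kept by filterByExpr, scaled by TMM over the 8 astrocyte libraries and tested with edgeR 4.0.16 (robust quasi-likelihood, 4 groups of 2, R 4.3.3), with Benjamini-Hochberg adjustment over 20116 genes at 0.05. Microglia were fitted alone (17318 genes) and jointly with astrocytes (20589 genes). Replicates of a group differed by more than sampling noise, so none was merged. limma-voom (3.58.1), DESeq2 (1.42.0), other filters and scaling, a length offset and left-out libraries were alternatives. Lists are described by counts and medians only. Genes named were Rack1, the 15 largest changes in each direction with a mean of at least 5 CPM, up to 6 members a list by p, all astrocyte and reactive markers, and 6 in each direction for each test of a difference. The members and lists were chosen with earlier results of these data known. Some genes are not reported here. Counting error alone is covered by the floor of 3 counts.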

Additional observations from a re-analysis of the deposited data

Results flagged for a closer look

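These genes had an effect of the model that differed from that in another set of libraries by the edgeR test of the difference, and were the extremes of that test. With the knockout, the effect minus that without it was, on the log2 scale, -4.30 for Bcl2a1b, -6.32 for Cst7, -5.43 for Igkc, -4.15 for Prss56, -8.40 for Tsix and -8.16 for Xist. Igkc, an immunoglobulin light chain gene, was at 149.3 and 139.9 CPM in the CKO astrocyte libraries and at 4.82 to 24.2 CPM in the other 6. The difference was 3.25 for Erbb3, 3.37 for Kcna6, 4.15 for Kif5a, 3.85 for Shisal1, 3.25 for Tppp and 2.95 for Vps8. Kif5a, a kinesin heavy chain gene, was at 43.6 and 45.3 CPM in WT and 15.8 and 15.99 in AD WT. Shisal1 did not pass in AD WT against WT (-0.04), and was at 1.24 and 1.37 CPM in CKO against 15.7 to 19.1 in the other 6 libraries.

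Against microglia, the effect in astrocytes minus that in microglia was 5.88 for Dynlt5, 5.22 for Prr29, 6.36 for Sntn, 8.80 for Prss56, 8.18 for Tsix and 9.77 for Xist. It was -5.64 for Nat8, -2.98 for Pak5, -5.30 for Pcdhb3, -3.10 for Pcdhgb8, -3.57 for Syndig1 and -3.06 for Uty. For Dynlt5, Prr29, Sntn, Prss56, Nat8, Pak5, Pcdhb3 and Syndig1 the WT and AD WT microglia libraries were all below 0.4 CPM, so these sizes depend on near-0 values there. Sntn, a cilium gene, was at 20.01 and 20.5 CPM in WT and 35.3 and 33.0 in AD WT astrocyte libraries. Uty fell in astrocytes while it rose by 2.28 in microglia, where Xist was at 188.6 and 190.6 CPM in WT and 143.1 and 156.0 in AD WT.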

How the results depend on the processing

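Of 135 named genes with a test, 123 kept their direction and their side of the threshold in every alternative run; Aqp4 and Clu reversed with the length offset, to 0.096 and -0.084. Without WT replicate 2 the risen count was 2465, and over left-out libraries it ran from 2465 to 4276, the fallen count from 2652 to 3914, the counts past 2-fold from 717 to 1006 risen and from 600 to 828 fallen. At 1 CPM in 2 libraries 618 genes rose and 453 fell by 2-fold, and without microglia-enriched genes 481 rose by 2-fold. The other counts over all genes stayed within 1.5 times. Of the counts and medians of lists under the alternatives, 158 and 135 moved. Without genes on X and Y, an alternative chosen after seeing the data, 3755 rose and 3598 fell; with DESeq2 3063 rose and 3166 fell. With a replicate block 4785 genes rose and 4126 fell. Same-numbered libraries correlated at 0.031 to 0.149 between groups, not all above 0.1, so the numbers were not taken as pairs. Apoe and Clu passed as rises with the block.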

Other observations

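Lysosomal genes rose in 14 of 26 cases and 2 fell, with a median of 0.12. With microglia-enriched genes left out, 5 of 13 tested members rose and 2 fell. Their median was then 0.06, beside 0.03 for all genes tested in that run. Ctsd, the cathepsin D gene, was at 1532 and 1506 CPM in WT and 2354 and 2334 in AD WT, a rise of 0.63 ± 0.035 (SE). Per 1000 CPM of microglia markers Ctsd was at 2730 and 2700 in WT and 2170 and 2100 in AD WT astrocyte libraries. In the microglia libraries it was at 414 and 422, then 851 and 865. Of 8 neutrophil markers 4 fell and 1 rose, where 18.0% of all tested genes fell and 20.0% rose. Ltf, the lactoferrin gene, was at 9.71 and 6.99 CPM in WT and 3.49 and 2.66 in AD WT. The immunoglobulin genes Igkc and Igha, which come from plasma cells, rose by 2.14 and 2.29, with Igha at 3.10 and 2.97 CPM in WT and 14.6 and 15.1 in AD WT.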
